A study of Mus musculus with 15 samples.

Results

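The genes described here are 7 established transcriptional targets of the tumour suppressor p53, namely Cdkn1a, Mdm2, Phlda3, Ccng1, Btg2, Bax and Gadd45a. They were followed in mouse hearts with a heart muscle knockout of MAT1 and in control hearts. A probe set, the group of short probes by which an array measures a transcript, was taken where the platform annotation gave it exactly 1 of these symbols. This rule found 7 of the 12422 probe sets on the array, which measure 6 of 8251 genes with a single-symbol probe set. There were 2 for Cdkn1a and 1 each for Mdm2, Phlda3, Ccng1, Btg2 and Gadd45a. Bax had no probe set by this rule and its expression was not analysed here. The rule used gene symbols and no measured value, but the members themselves were chosen with earlier results of these data known.

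The study removed MAT1, encoded by Mnat1, from mouse heart muscle. Total heart RNA was measured on 15 one-colour arrays. The cardiac knockout (CKO; αMHC-Cre+/0; MAT1F/F) carries 2 floxed alleles and Cre recombinase, and its littermate controls (αMHC-Cre+/0; MAT1F/+) carry the same Cre and keep 1 wild-type allele. There were 5 CKO and 3 control arrays at 4 wk of age, and 4 CKO and 3 control arrays at 2 wk. The α-myosin heavy chain promoter that drives Cre is active in cardiomyocytes, so other cells of the heart keep Mnat1. Every group, the controls included, carries the Cre transgene and at least 1 floxed allele.

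p53 is a transcription factor that is stabilised when DNA is damaged or transcription is disturbed. It binds paired copies of a short motif near its target genes, whose products arrest the cell cycle, repair DNA, promote cell death or, in the case of Mdm2, return p53 to a low level. MAT1 assembles the CDK-activating kinase with CDK7 and cyclin H, a complex that also serves in the general transcription factor TFIIH. Cardiomyocytes leave the cell cycle soon after birth, and p21, the product of Cdkn1a, is among the inhibitors present in them.

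Values are linear intensities as deposited, and differences are given on the log2(intensity + 16) scale with the standard error of the fit. A probe set was called changed when its adjusted p, from limma with Benjamini-Hochberg adjustment over all 12422 probe sets, was under 0.05. The arrays fell into 2 sets by their correlation over all probe sets, one of 6 and one of 9 arrays, which the labels do not mention. Each set held arrays of all 4 groups, so a second fit took the array set as a block. The smaller set held only 1 control array at each age, so every CKO minus control difference within it rests on that array. The labels do not say whether separate mice gave the arrays of a group, so the p-values measure a spread between arrays that may be partly technical. By Xist against Uty, every group held arrays of both sexes, so none came from only 1 mouse. In whole-heart RNA, fewer cells of a type and less RNA per cell cannot be told apart. The 2 Mnat1 probe sets, of which 1 was dim, did not check the labels, since the sources used here do not place them inside or outside the floxed DNA. The brighter one read 141 to 314 in CKO and 86.0 to 244 in control arrays at 4 wk, and 73.1 to 296 in CKO and 87.9 to 255 in control arrays at 2 wk. Its log2 difference at 4 wk was 0.53 ± 0.47 (limma, adjusted p = 0.726, and 0.0384 with array set in the model), and that of the other Mnat1 probe set was -0.03 ± 0.27 (adjusted p = 0.994).

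Cdkn1a encodes p21, an inhibitor of cyclin-dependent kinases that halts the cell cycle. At 4 wk it was higher in CKO arrays by the widest margin of the 6 measured genes, Phlda3 was also higher, Mdm2 was higher by a smaller amount that missed the threshold, and Ccng1, Btg2 and Gadd45a did not pass. Its promoter is shown because Cdkn1a leads the differences and the window holds a close match to the p53 consensus. The window below, from RefSeq on GRCm38.p6, is chr17:29090729-29091028 on the plus strand, 250 bases before to 50 bases after the upstream annotated start. Capitals mark the best pair of p53 half-sites, each 10 bases long, with a spacer of at most 1 base.
Cdkn1a, upstream start: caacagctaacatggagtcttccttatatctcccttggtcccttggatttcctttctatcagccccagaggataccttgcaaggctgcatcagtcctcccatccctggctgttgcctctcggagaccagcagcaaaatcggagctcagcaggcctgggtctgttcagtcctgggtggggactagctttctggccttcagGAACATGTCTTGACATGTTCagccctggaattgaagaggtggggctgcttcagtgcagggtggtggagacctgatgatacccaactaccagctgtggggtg
The pair lies 51 to 32 bases before that start and 2841 bases before the downstream annotated start. It departs from the consensus at 1 of its 20 bases. A pair that close was found in 58 of 32851 windows of the same length, or 0.177%. The window around the downstream start held no better pair than one with 5 mismatches, a level reached by 89.9% of windows. The core ACATGT, which lies inside the consensus and is its own reverse complement, occurred in 5.28% of all windows and was present in 2 copies here.

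At 4 wk, Cdkn1a was the member with the largest difference. Probe set 94881_at read 1729, 1681, 2850.1, 2651 and 2089 in the 5 CKO arrays, against 403, 130.3 and 296 in the 3 control arrays. Every CKO value lay far above every control value. The means were 2200 ± 531 in CKO (SD, n = 5) and 277 ± 138 in control arrays (SD, n = 3). The log2 difference was 3.02 ± 0.30, or 8.10-fold (limma, adjusted p = 5.0e-05). The difference was 2.04 within the smaller array set and 3.56 within the larger one.

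The second Cdkn1a probe set, 98067_at, gave the same direction. It read 489, 535, 1212, 1484 and 1122 in CKO arrays, against 278, 101 and 94.0 in control arrays at 4 wk. The groups again did not overlap, and the CKO arrays split by array set, with the first 2 readings from the smaller set well below the other 3. The log2 difference was 2.52 ± 0.46, or 5.75-fold (limma, adjusted p = 0.00407). It was 3.49 within the larger array set and 0.84 within the smaller one, where it was not called. The smaller set held 1 control array at 4 wk.

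**Figure D1:**
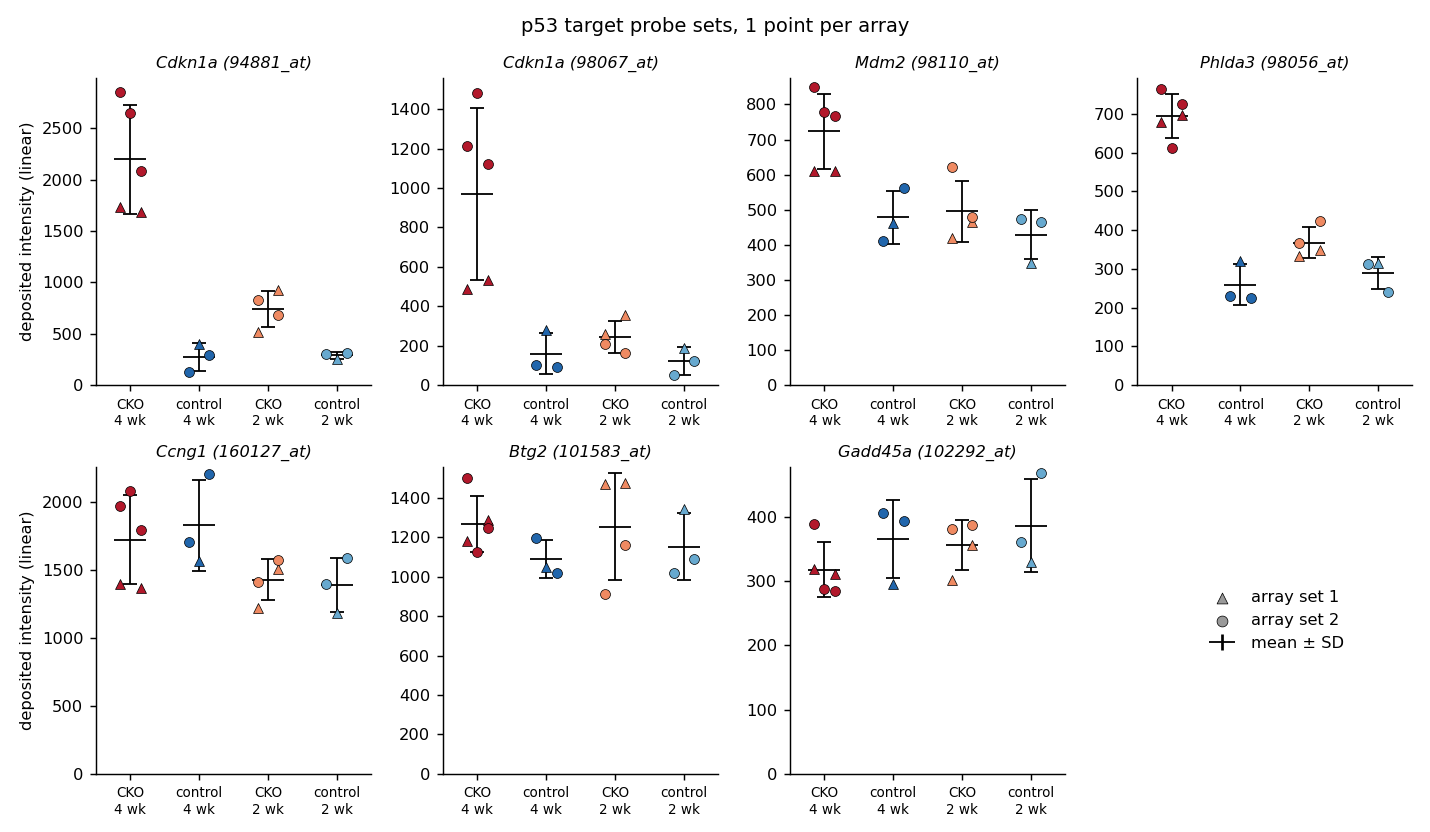
Deposited intensity (linear axis from 0) of the 7 p53 target probe sets in CKO and control arrays at 4 wk and 2 wk; points are arrays, triangles for the set of 6 and circles for the set of 9, and bars are means ± SD. Both Cdkn1a probe sets, Phlda3 and Mdm2 have all 5 CKO arrays at 4 wk above the 3 control arrays of that age, while Ccng1, Btg2 and Gadd45a overlap.

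Phlda3 encodes a small protein with little more than a lipid-binding PH domain, which competes with the kinase Akt for membrane lipids and so restrains Akt. It read 679, 696, 763, 611 and 724 in CKO arrays at 4 wk, against 319.6, 231 and 225 in control arrays. The lowest CKO array stood well above the highest control array, and the CKO values were closely grouped, at 695 ± 56.8 (SD, n = 5) against 259 ± 52.9 in controls (SD, n = 3). On the log2 scale Phlda3 differed by 1.39 ± 0.16, or 2.61-fold (limma, adjusted p = 0.000126). It was 1.07 within the smaller and 1.55 within the larger array set.

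Phlda3 is shown with its promoter because its level differed while its window held no close p53 pair. The window is chr1:135765835-135766134 on the plus strand (RefSeq, GRCm38.p6), and capitals mark its one ACATGT core.
Phlda3: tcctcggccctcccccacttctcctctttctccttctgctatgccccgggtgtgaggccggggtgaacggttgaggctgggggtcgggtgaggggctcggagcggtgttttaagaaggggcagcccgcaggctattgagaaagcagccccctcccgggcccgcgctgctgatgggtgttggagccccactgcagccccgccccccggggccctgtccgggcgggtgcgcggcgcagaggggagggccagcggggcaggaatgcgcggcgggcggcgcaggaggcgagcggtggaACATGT
The core is at the far end of the window and starts 44 bases after the transcription start. The best pair of half-sites in this window had 5 mismatches, as in the Mdm2 window. These windows cover a short stretch around each start, and no close match says only that these letters are not in it.

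Mdm2 encodes the ubiquitin ligase that marks p53 for destruction, the negative feedback arm of the pathway. It read 610.3, 611, 849, 778 and 768 in CKO arrays at 4 wk, against 462, 412 and 561 in control arrays. The groups did not overlap, though the gap between them was narrow. Mdm2 stood at a log2 difference of 0.58 ± 0.18, or 1.49-fold, and did not pass the threshold (limma, adjusted p = 0.0721). In the block fit by array set it was 0.60 ± 0.12 and passed (limma, adjusted p = 0.00137), with 0.39 within the smaller and 0.71 within the larger set. It also passed, with no block, at 1 probe set per gene without the dimmest 40% of genes (limma, adjusted p = 0.0477), with array weights (0.00187) and in the larger set alone (0.0125). Mdm2 did not pass after quantile normalization (limma, adjusted p = 0.146). Nor did it pass in any of the 15 fits without 1 array (limma, adjusted p = 0.0575 to 0.323).

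At 4 wk, 3 of the 7 probe sets, for 2 of the 6 measured genes, were called higher in CKO arrays and none was called lower. The background was 3.86% of all probe sets called higher and 2.42% called lower. In that block fit, 4 of 7 were called higher and none lower, against a background of 14.5% higher and 7.7% lower. In 4 of 7 every CKO array lay above every control array, which held for 8.15% of all probe sets. The median log2 difference was 0.58 over the 7 probe sets and 0.07 over all 12422. The count of 3 was the same when each of the 15 arrays was left out in turn.

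**Figure D2:**
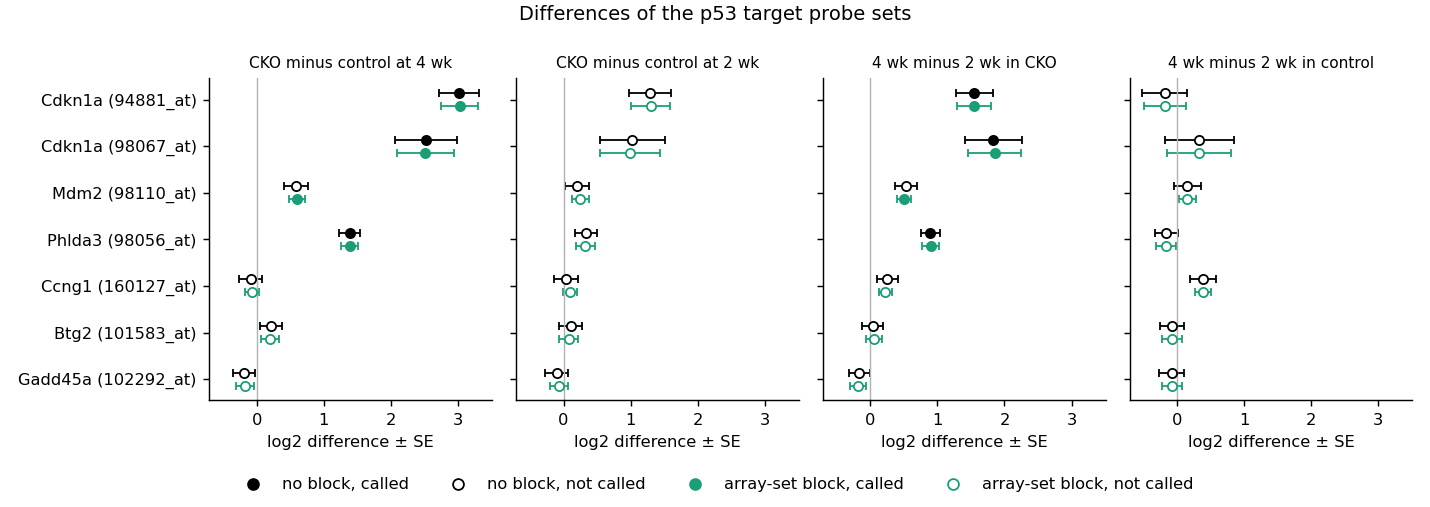
Log2 difference ± SE of each p53 target probe set in 4 comparisons, from the fit without a block (black) and the block fit by array set (green); filled points were called. Cdkn1a and Phlda3 are filled for CKO minus control at 4 wk and for 4 wk minus 2 wk in CKO arrays, Mdm2 only in green, and no point is filled for CKO minus control at 2 wk or between the ages in control arrays.

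The other 3 measured members did not pass the test. Ccng1 encodes cyclin G1, which recruits a protein phosphatase to Mdm2. Its promoter is shown because it holds a p53 pair with as few mismatches as that of Cdkn1a, again 1 in 20 bases. The window is chr11:40755237-40755536 on the minus strand (RefSeq, GRCm38.p6), with the pair in capitals, 195 to 176 bases before the start.
Ccng1: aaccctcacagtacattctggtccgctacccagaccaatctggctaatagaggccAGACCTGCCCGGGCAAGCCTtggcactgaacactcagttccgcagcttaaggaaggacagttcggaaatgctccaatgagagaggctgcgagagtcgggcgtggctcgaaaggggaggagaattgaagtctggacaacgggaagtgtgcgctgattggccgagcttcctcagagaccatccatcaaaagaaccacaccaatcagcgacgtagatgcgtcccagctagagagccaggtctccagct
Ccng1 read 1397, 1362, 1969.8, 2076 and 1792 in CKO arrays at 4 wk, against 1565, 1706 and 2202 in control arrays. The ranges overlapped almost fully, and in both groups the arrays of the smaller set were the low ones. The log2 difference was -0.09 ± 0.17, with a 95% interval of -0.46 to 0.27 (limma, adjusted p = 0.930).

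Btg2 encodes an antiproliferative protein that binds the CCR4-NOT deadenylase complex. It read 1183, 1289, 1500.1, 1128 and 1248 in CKO arrays at 4 wk, against 1049, 1198 and 1020.5 in control arrays. The groups overlapped. For Btg2 the log2 difference was 0.21 ± 0.16, with a 95% interval of -0.14 to 0.57 (limma, adjusted p = 0.650).

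Gadd45a encodes a stress-response protein that binds PCNA and p21 and is induced by DNA damage. It read 318, 311, 389, 287 and 284 in CKO arrays at 4 wk, against 296, 406 and 394 in control arrays. The groups overlapped here too. For Gadd45a the log2 difference was -0.19 ± 0.17, with a 95% interval of -0.55 to 0.17 (limma, adjusted p = 0.728). The upper ends of the Ccng1, Btg2 and Gadd45a intervals were all below the fitted differences of Cdkn1a and Phlda3.

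The p53 pairs of the 3 members whose windows departed from the consensus at 1 base are set out below, in capitals throughout because all of each line is the pair. Bax encodes a protein that permeabilises the outer mitochondrial membrane in apoptosis, and its pair is chr7:45467090-45467110 on the minus strand with a spacer of 1 base. Those of Cdkn1a and Ccng1 are chr17:29090928-29090947 on the plus strand and chr11:40755462-40755481 on the minus strand.
Cdkn1a: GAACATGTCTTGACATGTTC
Ccng1: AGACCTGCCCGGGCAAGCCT
Bax: AAGCATATCCCAGGCAAGCTT
The best pairs of Gadd45a and Btg2 had 3 and 4 mismatches, which 11.7% and 47.4% of windows reached or bettered. A match is a description of the sequence and not evidence that p53 binds there in the heart. Cdkn1a and Ccng1 had pairs with equal mismatch counts, which do not weigh the position of a mismatch. The mismatched base is at an end of a half-site in Cdkn1a and in the middle of one in Ccng1. The 4 wk difference of 3.02 in Cdkn1a stood beside -0.09 in Ccng1.

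**Figure D3:**
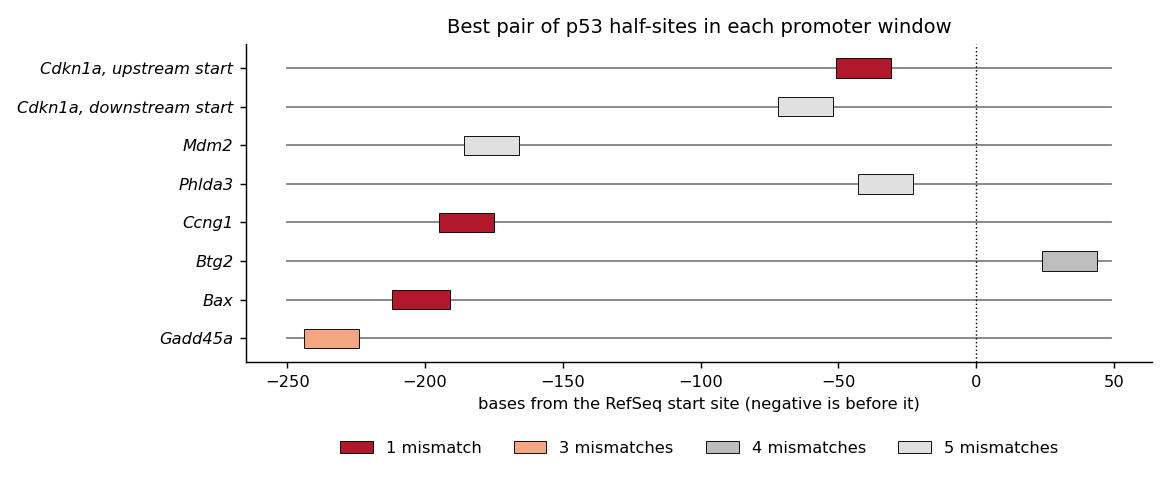
Position, in bases from the annotated start, of the best pair of p53 half-sites in each of the 8 promoter windows of the 7 genes, coloured by its number of mismatches. The windows of Ccng1, Bax and the upstream start of Cdkn1a hold a pair with 1 mismatch, and the other 5 windows one with 3 to 5.

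At 2 wk the same genes were nearer to control. Cdkn1a 94881_at read 828, 683, 520.3 and 928 in CKO arrays, against 303, 313 and 249 in control arrays. Every CKO array was above every control array. Cdkn1a 94881_at stood at a log2 difference of 1.29 ± 0.31, or 2.44-fold, and was not called (limma, adjusted p = 1). In the block fit it was 1.30 ± 0.29 (limma, adjusted p = 0.238), and it was 1.43 and 1.25 within the smaller and larger sets.

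Phlda3 read 367, 423, 332 and 347 in CKO arrays at 2 wk, against 312, 241 and 314 in control arrays. These groups did not overlap either, but the gap was small. Phlda3 was thus at 0.33 ± 0.16 (limma, adjusted p = 1). Cdkn1a 98067_at read 210.2, 161, 256 and 354 in CKO arrays at 2 wk, against 49.5, 124 and 190.02 in control arrays, and Mdm2 read 621, 478, 418 and 465 against 473, 463 and 348. Both overlapped between the groups, with log2 differences of 1.03 ± 0.48 and 0.20 ± 0.18.

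None of the 7 probe sets was called at 2 wk, against a background of 0.00805%, which is 1 probe set of 12422. At an unadjusted p under 0.05 there were 129 probe sets, 1 of them a member, and the block fit called 7, or 0.0564%, none of them a member. In 2 of 7 every CKO array lay above every control array, as in 1.52% of all probe sets. The differences of Ccng1, Btg2 and Gadd45a at 2 wk were 0.04, 0.10 and -0.10, with standard errors of 0.17 to 0.18. A missed threshold with 4 and 3 arrays does not show that these genes were equal.

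Whether the knockout difference grew with age was tested as the effect at 4 wk minus the effect at 2 wk. It was 1.73 ± 0.43 for Cdkn1a 94881_at (limma, adjusted p = 0.120), 1.50 ± 0.67 for Cdkn1a 98067_at (adjusted p = 0.675) and 1.05 ± 0.22 for Phlda3 (adjusted p = 0.0577). None of the 7 was called, against a background of 0.531%, and 3 of the 7 had an unadjusted p under 0.05, among 855 of all probe sets. In the block fit by array set, 2 of 7 were called, against a background of 5.5%. These were Cdkn1a 94881_at at 1.72 ± 0.40 (limma, adjusted p = 0.0180) and Phlda3 at 1.06 ± 0.19 (adjusted p = 0.0037). The call also depended on 1 array, since leaving out control 4 wk replicate 1, without the block, gave 2 calls (adjusted p = 0.0357 for Cdkn1a 94881_at and 0.0228 for Phlda3). Within the smaller and larger array sets, the difference between the effects was 0.61 and 2.32 for Cdkn1a 94881_at. It was 0.22 and 2.43 for Cdkn1a 98067_at, and 0.96 and 1.05 for Phlda3. For Mdm2 the difference between the effects was 0.38 ± 0.26 (limma, adjusted p = 1).

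Between the ages within CKO arrays, 3 of the 7 probe sets were higher at 4 wk than at 2 wk and none was lower, against a background of 2.06% called higher and 1.27% called lower. Cdkn1a 94881_at differed by 1.55 ± 0.28 (limma, adjusted p = 0.00556) and Phlda3 by 0.89 ± 0.14 (adjusted p = 0.00265), with no overlap between the ages in either. The second Cdkn1a probe set did not overlap either, and 3 of 7 stood clear in this way against 4.27% of all probe sets. Cdkn1a 98067_at differed by 1.83 ± 0.42 (limma, adjusted p = 0.0272). Its call was lost, at adjusted p up to 0.0924, when any of 6 arrays was left out, namely CKO 4 wk replicates 3, 4 and 5 and CKO 2 wk replicates 1, 2 and 3. Mdm2 was at 0.53 ± 0.16 (limma, adjusted p = 0.104) and passed in the block fit (0.50 ± 0.11, adjusted p = 0.00423), where 4 of 7 were called higher against a background of 8.52%.

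Within control arrays none of the 7 was called between 4 wk and 2 wk, against a background of 0.338% in either direction, and none had an unadjusted p under 0.05, as 672 of all probe sets had. Cdkn1a 94881_at averaged 277 ± 138 at 4 wk and 288 ± 34.6 at 2 wk (SD, n = 3 each), a log2 difference of -0.18 ± 0.34. Phlda3 averaged 259 ± 52.9 at 4 wk and 289 ± 41.4 at 2 wk (SD, n = 3 each). Ccng1 was at 0.39 ± 0.19 (limma, adjusted p = 1, and 0.0983 in the block fit). The comparisons within CKO and within control arrays use the same arrays as those between CKO and control.

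Across the 15 arrays, on the log2 scale after removing the mean of each array set, Phlda3 and Mdm2 followed Cdkn1a 94881_at with correlations of 0.94 each. The 2 Cdkn1a probe sets had a correlation of 0.90 with each other. Ccng1 and Btg2 followed weakly, at 0.35 and 0.31, and Gadd45a ran the other way, at -0.52. The points share the 4 groups, whose means are part of every such value. Among 8250 genes, those most like Cdkn1a were Eif5, Sec23ip, Jmjd6, Dohh and Kctd10, with correlations of 0.97 to 0.99, while Phlda3 ranked 48 and Mdm2 49. That order depends on removing the array-set means, since on the deposited values the 5 genes had correlations of 0.76 to 0.93, Phlda3 0.93 and Mdm2 0.85. Of these, Eif5 encodes a translation initiation factor and Dohh an enzyme that completes hypusine in the initiation factor eIF5A.

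**Figure D4:**
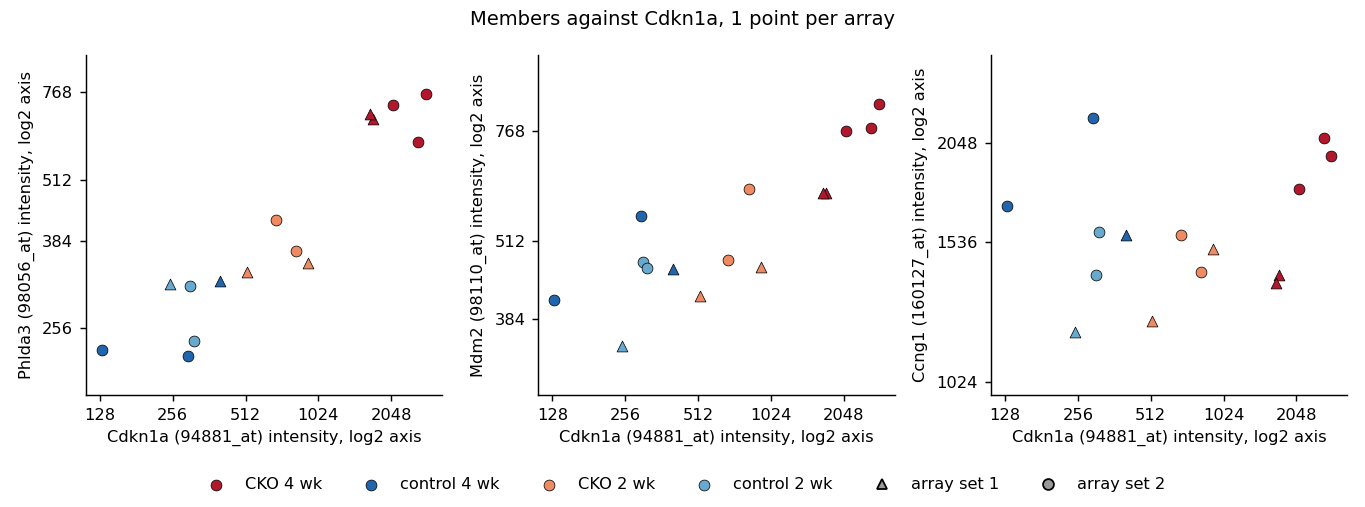
Intensity of Phlda3, Mdm2 and Ccng1 against that of Cdkn1a probe set 94881_at in the 15 arrays, all on log2 axes; points are arrays, coloured by group and shaped by array set. The 5 CKO arrays at 4 wk lie at the upper right for Phlda3 and Mdm2, and for Ccng1 they lie within the range of the other arrays.

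Other p53 targets, from 3 lists of 47 genes, were mostly not called at 4 wk. Of the 28 with a single-symbol probe set, 3 were called higher and 1 lower, against 3.86% and 2.42% of all probe sets, and their median log2 difference was 0.06, beside 0.07 over all probe sets. The block fit called 7 higher and 4 lower, against 14.5% and 7.7% of all probe sets. The called genes were spread over arrest, death and metabolism.

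Zmat3, a zinc-finger protein that binds RNA, had the largest difference of the death list. It read 409, 403, 488, 417 and 469 in CKO arrays at 4 wk, against 189, 139 and 189 in control arrays, with no overlap. The log2 difference was 1.27 ± 0.16, or 2.42-fold (limma, adjusted p = 0.000303), and at 2 wk it was 0.39 ± 0.17 (adjusted p = 1). It was the only one of the 8 measured genes of that list that was called. Perp, a membrane protein of cell junctions, was at 0.71 ± 0.26 (limma, adjusted p = 0.145) and passed in the block fit (0.75 ± 0.14, adjusted p = 0.000742). The death receptor Fas was at 1.13 ± 0.55 (limma, adjusted p = 0.342). The probe sets of Fas, Rrm2b, Crebbp, E2f1 and Atf3 are of classes whose probes related transcripts may share.

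Among 12 measured genes of arrest and DNA repair, Plk2, a polo-like kinase, was called. It read 1026, 946, 994, 873 and 798 in CKO arrays at 4 wk, against 748, 525 and 551 in control arrays. The groups did not overlap, and the log2 difference was 0.61 ± 0.14 (limma, adjusted p = 0.0183). The call was lost without control 4 wk replicate 2 or 3 (0.51 and 0.55, adjusted p = 0.126 and 0.102) and after quantile normalization (adjusted p = 0.0511) or median scaling (adjusted p = 0.0666). Pcna, the sliding clamp of DNA polymerases, was at 0.81 ± 0.28 (limma, adjusted p = 0.124) with no overlap between the groups, and 0.85 ± 0.18 (adjusted p = 0.00214) in the block fit. Rrm2b, a ribonucleotide reductase subunit, was at -0.37 ± 0.19 (limma, adjusted p = 0.362).

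Among 8 measured genes of metabolism and secretion, Ak1 fell and Gpx1 rose. Ak1, an adenylate kinase of muscle, read 1411, 1456, 1568, 1635 and 2032 in CKO arrays at 4 wk, against 2524, 2543 and 2759 in control arrays. It was lower in every CKO array than in any control array, with a log2 difference of -0.69 ± 0.11 (limma, adjusted p = 0.00218). Gpx1, a glutathione peroxidase, was at 0.85 ± 0.23 (limma, adjusted p = 0.0400), with 1 CKO array, at 308, inside the control range of 242 to 377. That call was lost after median scaling (adjusted p = 0.0596) and in 12 of the 15 fits without 1 array. It was kept only without control 4 wk replicate 1, CKO 4 wk replicate 5 or control 2 wk replicate 3, and reached adjusted p = 0.205 without control 4 wk replicate 2. Sesn1, a stress-induced sestrin, was at -0.70 ± 0.24 (limma, adjusted p = 0.108) and passed in the block fit (adjusted p = 0.0241), after quantile normalization (0.0402) and with the replicate block (0.0291).

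**Figure D5:**
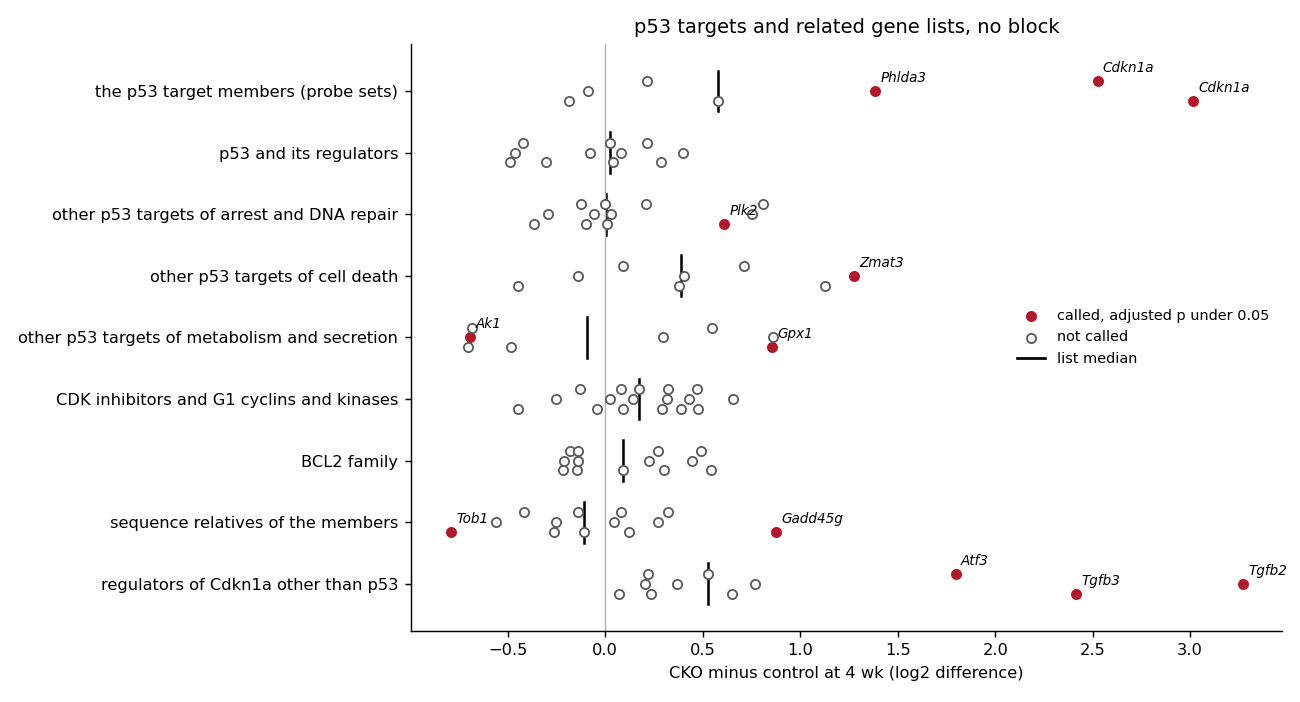
Log2 difference, CKO minus control at 4 wk, of the 7 member probe sets (top row) and of each measured gene in 8 lists around the p53 pathway; filled points were called and the vertical bar is the median. Of the 8 lists, all chosen with earlier results of these data known, the other Cdkn1a regulators have the highest median, 0.53. The 4 calls among other p53 targets are Plk2, Zmat3, Ak1 and Gpx1.

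Of 11 measured genes that control p53 itself, none was called at 4 wk, and the block fit called 1, Crebbp, lower. That fit called 7.7% of all probe sets lower. Trp53 had no probe set under its own symbol and was not analysed here. Mdm4, which binds p53 and blocks its activity, was measured by 2 probe sets with log2 differences of 0.08 ± 0.25 and 0.01 ± 0.36, values whose sign turned under several settings. The 3 genes of the list with the smallest p were the acetyltransferase Crebbp at -0.49 ± 0.19 (limma, adjusted p = 0.183, with 0.0146 in the block fit, 0.0400 after quantile normalization and 0.0472 after median scaling), the checkpoint kinase Chek2 at -0.47 ± 0.20 (adjusted p = 0.251) and the deubiquitinase Usp7 at 0.29 ± 0.20 (adjusted p = 0.579). Crebbp was not called in any of the 15 fits without 1 array (limma, adjusted p = 0.118 to 0.453). None of 17 cyclin-dependent kinase inhibitors and G1 genes was called either, and the block fit called 1, Rb1, higher. That fit called 14.5% of all probe sets higher. Rb1, which holds back E2F factors, was at 0.48 ± 0.18 (limma, adjusted p = 0.155, and 0.0112 in the block fit), E2f1 at -0.45 ± 0.27 (adjusted p = 0.509) and the CDK inhibitor Cdkn2d at 0.47 ± 0.34 (adjusted p = 0.616).

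None of 13 measured BCL2 family genes, the family of Bax, was called at 4 wk, and the block fit called 3 higher, where 14.5% of all probe sets were called higher. These were the pro-death genes Bik at 0.47 (limma, adjusted p = 0.0164) and Bad at 0.59 (adjusted p = 0.00604), and the survival gene Bcl2l1 at 0.40 (adjusted p = 0.0375). Of 13 measured genes related in sequence to the members, Gadd45g was called higher and Tob1 lower. Of all probe sets, 3.86% were called higher and 2.42% lower. Gadd45g, a relative of Gadd45a, read 167, 185, 246, 188 and 287 in CKO arrays at 4 wk, against 93.3, 97.9 and 135 in control arrays, a log2 difference of 0.87 ± 0.20 (limma, adjusted p = 0.0158). Its call was lost without control 4 wk replicate 1 or 2 (adjusted p = 0.0601 and 0.0920) and after quantile normalization (adjusted p = 0.0842) or median scaling (adjusted p = 0.0923). Tob1, an antiproliferative relative of Btg2, read 836, 739, 569.9, 745 and 803 in CKO arrays, against 1241, 1190.1 and 1425 in control arrays. It was lower in every CKO array, by -0.79 ± 0.14 on the log2 scale (limma, adjusted p = 0.00289). Phlda1, a relative of Phlda3, was at -0.56 ± 0.22 (limma, adjusted p = 0.190).

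Regulators of Cdkn1a other than p53, a list chosen with earlier results of these data known, included the largest difference of any list. Of 11 measured, 3 were called higher at 4 wk and none lower, with a median of 0.53, beside 0.07 over all probe sets. Of all probe sets, 3.86% were called higher and 2.42% lower. The block fit called 6 of the 11 higher and none lower, against 14.5% and 7.7% of all probe sets. Tgfb2, a ligand of the TGF-β family, read 575, 667, 1349, 1060.4 and 1418 in CKO arrays, against 60.1, 97.3 and 101 in control arrays, a log2 difference of 3.27 ± 0.32 (limma, adjusted p = 5.0e-05). Tgfb3, another such ligand, read 782, 599, 1697, 1231 and 1413 in CKO arrays, against 249, 148 and 177 in control arrays. Its log2 difference was 2.42 ± 0.29 (limma, adjusted p = 0.000232). Atf3, a stress-induced transcription factor, differed by 1.80 ± 0.28 (limma, adjusted p = 0.0014). At 2 wk these 3 were at log2 differences of 0.29 ± 0.34, 0.23 ± 0.31 and 0.64 ± 0.29 (limma, adjusted p = 1 each). No gene of any of the 8 lists was called at 2 wk.

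Markers of other cell types also moved at 4 wk. All 6 fibroblast and matrix markers were called higher, with summed intensities of 19847 to 26507 in CKO and 9109 to 10545 in control arrays. Of 7 cardiac muscle markers, 5 were called lower, with sums of 46056 to 49421 in CKO and 58224 to 61029 in control arrays. Of all probe sets, 3.86% were called higher and 2.42% lower. Smooth muscle had 2 of 4 higher and endothelium 1 of 6, while none of the measured macrophage (6), lymphocyte (5), erythroid (2) and dividing-cell (5) markers was called. Dividing-cell sums were still 928 to 1218 in CKO and 501 to 746 in control arrays at 4 wk. Erythroid sums were 7430 to 13313 in CKO and 5890 to 7325 in control arrays. Neither range overlapped, whereas macrophage and lymphocyte sums did overlap between the groups. No defining marker was at the floor of the arrays, and none was called at 2 wk. By Xist against Uty, 4 of 5 CKO and 1 of 3 control arrays at 4 wk came from females. With array set and inferred sex both as blocks, Cdkn1a 94881_at differed by 2.91 and Phlda3 by 1.29 at 4 wk, and 4 of the 7 probe sets were called, against a background of 18.8%. The part of the fibroblast and muscle markers in the member differences was not tested.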

How the data were processed

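Heart RNA of the 4 groups was measured on 15 one-colour arrays, labelled with biotin per the labels' protocols. The deposited values are intensities, 1 per probe set and array, with array medians of 173.7 to 216.8 and a floor of 0.95. The sources used here do not give the authors' software, background correction or scaling. The number of arrays limits the precision.

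Intensities were kept as deposited, taken as log2(intensity + 16) and fitted with limma 3.58.1 in R 4.3.3, as a model of the 4 group means on the 15 arrays, an intensity trend and Benjamini-Hochberg adjustment over 12422 probe sets for each of 5 comparisons. An adjusted p under 0.05 was called. Of the probe sets, 10833 had 1 symbol, 396 several and 1193 none. A GRCm38.p6 table gave current symbols by gene ID. List genes were represented by their brightest single-symbol probe set.

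The array sets came from average-linkage clustering of the correlations between arrays (lowest within a set 0.937, highest between sets 0.924). Inferred sex compared Xist with Uty. Half-sites were scored against the p53 consensus on both strands in 32851 RefSeq promoter windows.

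The text names all members, Trp53, Mdm4 and Mnat1, the 3 genes of each list with the smallest p at 4 wk, and the 5 genes most like Cdkn1a. The members and lists were chosen with earlier results of these data known. Alternatives covered scaling, pseudocount, filters, blocks, array weights and each array left out. On simulated data for CKO minus control at 4 wk, with 12422 probe sets, the fit recovered 61% of 100 probe sets changed by 1 and 93% of 100 changed by 2 on the log2 scale, with 11 false calls.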

Additional observations from a re-analysis of the deposited data

Results flagged for a closer look

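The knockout effect on 2 probe sets differed between the ages when the array set was a block, by a test of the difference itself. For Cdkn1a probe set 94881_at, the effect at 4 wk minus the effect at 2 wk was 1.72 on the log2 scale (limma, adjusted p = 0.0180), from effects of 3.02 at 4 wk and 1.30 at 2 wk. For Phlda3 probe set 98056_at it was 1.06 (limma, adjusted p = 0.0037), from 1.38 at 4 wk and 0.32 at 2 wk. Without the block neither passed (adjusted p = 0.120 and 0.0577). Within the smaller and larger array sets the difference was 0.61 and 2.32 for Cdkn1a 94881_at, and 0.96 and 1.05 for Phlda3. No array stood apart from the rest of its group in the 14 groups of 4 or 5 member values that were tested for it. These were groups of CKO arrays, and the smaller control groups were not tested in this way.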

How the results depend on the processing

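The calls of Cdkn1a 94881_at and Phlda3 at 4 wk held under every setting run, with log2 differences of 2.58 to 3.34 and 1.30 to 1.54 when 1 array was left out. The member count at 4 wk was 3, became 4 in each fit with the array set as a block, with array weights and in the larger set alone, and 2 in the smaller set alone. The member count for the difference between the effects was 0 and became 1 when the lowest 40% of probe sets or genes was left out, 2 with the array set as a block (also with quantile normalization, inferred sex or the replicate block added), 2 with array weights, 3 in the larger array set alone, and 0 to 2 when 1 array was left out. In control arrays between the ages it became 1 with the array set and replicate block together, a setting added after seeing the data. With the replicate block alone, the count stayed at 3 at 4 wk, with 372 calls over all probe sets against 779, and became 2 in CKO arrays between the ages, with 189 calls against 414. The replicate numbers were not taken to pair the arrays, since 7 of 19 same-numbered pairs had a correlation above 0.1. Among differently numbered pairs it was 36 of 64. Array set alone or as a block moved the number of all calls at 4 wk to 1007 to 2760, array weights to 2063, and leaving out control 4 wk replicate 2 or 3 to 342 and 403. In the smaller set alone, with 1 control array at each age, the 4 wk calls of Cdkn1a 98067_at, Plk2 and Gpx1 were lost. Their log2 differences there were 0.84, 0.39 and 0.47. The call of Cdkn1a 94881_at in CKO arrays between the ages was lost there too, at 1.27. Without CKO 4 wk replicate 2 Perp was called (adjusted p = 0.0353), and without CKO 4 wk replicate 4 Sesn1 (0.0172). The split of calls at 4 wk was 61.5% higher as deposited, 47.1% after quantile normalization and 48.9% after median scaling. No called difference changed sign. In the smaller set alone, at 4 wk, Gadd45a was at 0.083, Chek2 at 0.053, E2f1 at 0.061 and Mdm4 at -0.28 and -0.11. In that set, Gadd45a was at 0.093 for the difference between effects, control arrays between the ages were at 0.66 for Cdkn1a 94881_at and 0.023 for Phlda3, and Btg2 in CKO arrays at -0.25. In the larger set, Ccng1 was at 0.0034 at 4 wk, -0.0021 at 2 wk and 0.0055 between effects, and Btg2 at -0.035 at 2 wk and 0.065 in control arrays. Array weights gave Ccng1 0.018, -0.018 and 0.037 for the same 3 comparisons, Btg2 -0.043 between effects and 0.084 in control arrays, Mdm2 -0.034 in control arrays and Mnat1 98979_at 0.20. Ccng1 at 2 wk was at -0.0013 after quantile normalization, -0.015 after median scaling and -0.024 with the replicate block. Btg2 in CKO arrays was at -0.050 after quantile normalization and -0.017 with the array set block added. Mdm4 93338_at was at -0.046 after quantile normalization, -0.024 after median scaling, -0.0024 with a pseudocount of 64, -0.042 with the array set block, -0.077 with quantile normalization added, -0.086 with sex added, -0.15 with the replicate block added and -0.0059 with the replicate block alone. Mdm4 93339_at was at -0.0088 after quantile normalization, -0.035 with the array set block and quantile normalization and -0.035 with sex. Mnat1 98979_at was at 0.060 with the replicate block and 0.0072 with both blocks. When 1 array was left out, the ranges were -0.19 to 0.052 for Ccng1 at 4 wk, -0.067 to 0.14 at 2 wk and -0.23 to 0.0098 between effects. For Btg2 they were -0.031 to 0.20 between effects, -0.16 to 0.040 in control and -0.11 to 0.12 in CKO arrays. For Gadd45a they were -0.20 to 0.037 at 2 wk, -0.23 to 0.016 between effects and -0.18 to 0.064 in control arrays. In control arrays they were -0.50 to 0.26 for Cdkn1a 94881_at and -0.12 to 0.70 for 98067_at. They were -0.30 to 0.36 and -0.12 to 0.33 for Mdm4 and -0.27 to 0.11 for Mnat1 98979_at. The cause of these changes was not tested. Probe sets removed by a filter, and the dimmer Cdkn1a probe set with 1 probe set per gene, gave no value there.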
